A study of Mus musculus with 2 samples.

Results

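The comparison described here sets the posterior against the middle dissection of the mouse second heart field at stage E10.5 (days of embryonic development). Its members were the cells whose barcode suffix the sample description assigns to middle (suffix 3) or posterior (suffix 4). There were 331 middle and 560 posterior cells, together 891 of the 1500 cells of the series. All were wild-type cells labelled Osr1+, without a statement of how they were chosen, of the embryos' strain or of how many embryos were pooled. The same stage also gave an outflow tract library (31 cells) and an anterior library (45 cells), and a separate wild-type E9.5 sample gave 61 middle and 418 posterior cells. These are used only to place the levels found in the 2 libraries. The outflow tract and anterior libraries held only 196599 and 253936 UMIs. A count of 0 there bounds a level less closely than in middle or posterior cells. Each position was measured once per stage, so the comparison has no replicate error and no test. Ratios are of counts scaled to 1000000 per library (CPM), summed over the cells of a library, with 95% exact conditional Poisson intervals that cover counting error only.

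The second heart field is a splanchnic mesoderm progenitor population behind the heart tube. Its anterior, pharyngeal part depends on Tbx1 and gives rise to outflow tract and right ventricle, while its posterior part adds cells to the atria, the atrial septum and the venous pole. The posterior part lies against the foregut, is under Hedgehog and retinoic acid signals, and shares Tbx5, Foxf1, Wnt2 and Gata factors with the mesenchyme of the lung bud and stomach. Osr1, a zinc finger gene, marks posterior progenitors and also mesoderm outside the heart.

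The 2 libraries were of like depth per cell and differed in other respects. The middle library held 2041441 UMIs (median 5263 per cell, range 4258 to 45943) and the posterior library 3449001 (median 5388.5, range 4092 to 25222). Every cell had at least 1 Osr1 UMI, and exactly 1 was found in 65.9% of middle and 48.8% of posterior cells. Osr1 (chromosome 12, 9570116 to 9581500, mm10) was at 251 CPM in middle and 317 CPM in posterior cells, a log2 ratio of 0.34 (0.18 to 0.49) that the choice of Osr1+ cells bears on. Mitochondrially encoded genes took 1.34% of middle and 2.83% of posterior UMIs, and globins 0.556% and 0.230%. Both libraries held Xist, at 561 and 828 CPM, while the E9.5 middle library was at 0 and the E9.5 posterior library at 0.073 CPM. The 2 libraries shared 1 cell barcode (4817 and 4910 UMIs), and no other pair of libraries shared any.

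Of 17348 genes, 9246 had 30 or more counts in both libraries together. Of these, 1170 (12.7%) were 2-fold or more higher in posterior cells and 143 (1.55%) 2-fold or more lower, with a median log2 ratio of 0.20 over all genes. The counts of list members are to be read against these shares. Scaling by trimmed mean of M-values (TMM) in place of library totals moved that median to 0.03 and the split to 825 higher and 247 lower. The ratio followed transcript length. In 6 classes of equal size from short to long transcripts, the median log2 ratios were −0.15, −0.03, 0.11, 0.31, 0.41 and 0.68, and the share 2-fold or more higher went from 3.73% in the shortest to 30% in the longest class. The E9.5 libraries showed no such gradient, with medians between 0.01 and 0.06. Within epithelium-like cells, 14 in middle and 42 in posterior, the medians ran from −0.29 to 0.94. Whether the epithelium of the 2 libraries was of the same kind was not tested. The longest class took 8.91% of posterior UMIs, against 6.61% in middle, 6.88% in anterior and 7.51% in outflow tract cells, so the posterior library stood apart from the other 3 of its stage. The part of transcript length in single gene ratios was not tested. A length-centred ratio, with the median of genes of like length subtracted, is therefore given for some of the results. Of the 108 named genes past 2-fold, 21 were not past it when length-centred, and not all of these are marked. On that scale 534 of 9180 genes (5.82%) were 2-fold or more higher and 253 (2.76%) 2-fold or more lower.

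**Figure D1:**
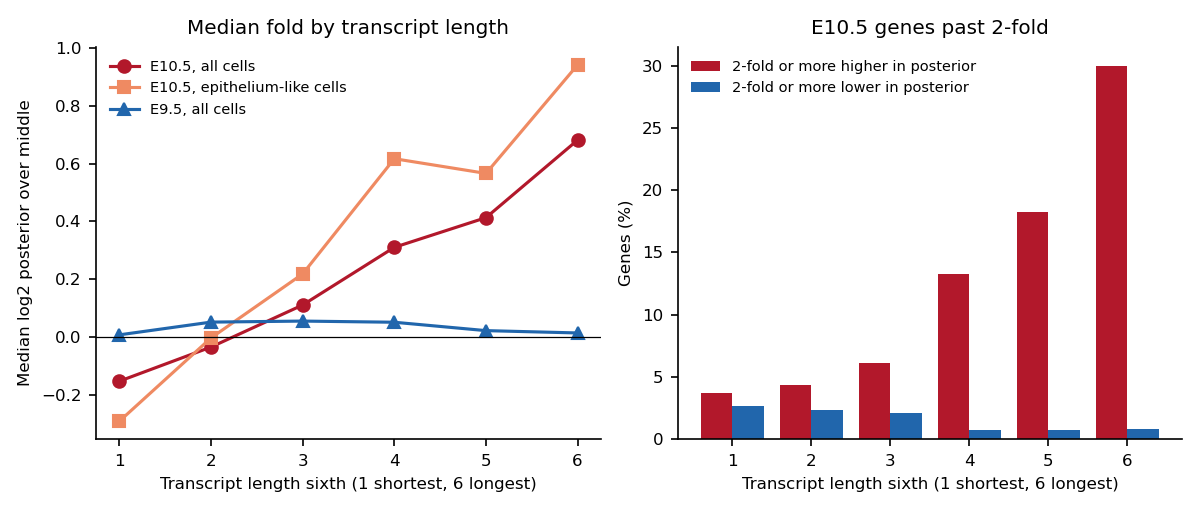
Left, the median log2 posterior over middle CPM ratio for genes in 6 transcript length classes, for all E10.5 cells, E10.5 epithelium-like cells and all E9.5 cells; right, the percentage of E10.5 genes 2-fold or more higher (red) or lower (blue) in each class. The E10.5 medians run from −0.15 to 0.68 and the E9.5 medians stay between 0.01 and 0.06.

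Barx1, a homeobox gene of stomach and oesophageal mesenchyme, was the most abundant of the genes that led the posterior side. Barx1 (chromosome 13, 48662998 to 48666507) was at 20.6 CPM in middle and 720 CPM in posterior cells, and at 19.7 CPM in the anterior and 275 CPM in the outflow tract library. The posterior library was the highest of the 4, the outflow tract library came next, and middle and anterior were close to each other. The log2 posterior over middle ratio was 5.13 (4.69 to 5.61), from 42 and 2484 counts. After thinning every cell to 4000 UMIs, Barx1 had a UMI in 48.6% of posterior and 3.93% of middle cells (52.0% and 6.04% unthinned). Epithelium-like cells, which should lack it and had a median of 6558.5 UMIs, gave 5.36% after thinning, but 42 of these 56 cells were posterior. In middle cells 76.2% of the 42 Barx1 counts came from 10 cells. In posterior cells 12.2% of the Barx1 counts came from the 10 highest cells, and 112 cells had 10 or more. The E9.5 libraries had the same direction, with 0.62 CPM in middle and 88.1 CPM in posterior cells.

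The start regions of 3 genes are shown because these genes lead the results to follow: Barx1 (higher in posterior cells over many cells), Afp (counted in posterior cells and in no middle cell) and Tbx1 (lower in posterior cells). Each is a window of 300 bases around the start, from RefSeq on GRCm38.p6, printed 5′ to 3′ on the gene's strand with CpG dinucleotides in capitals. They are chr13:48662786-48663085 (plus strand), chr5:90490464-90490763 (plus strand) and, for the first of the 2 Tbx1 starts listed, chr16:18588850-18589149 (minus strand).
Barx1: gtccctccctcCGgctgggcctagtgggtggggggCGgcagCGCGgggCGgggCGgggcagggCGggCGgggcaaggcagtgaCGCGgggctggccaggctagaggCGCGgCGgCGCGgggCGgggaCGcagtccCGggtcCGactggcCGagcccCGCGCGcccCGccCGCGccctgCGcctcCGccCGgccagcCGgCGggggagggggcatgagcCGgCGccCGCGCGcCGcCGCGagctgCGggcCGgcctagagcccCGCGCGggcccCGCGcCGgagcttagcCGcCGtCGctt
Afp: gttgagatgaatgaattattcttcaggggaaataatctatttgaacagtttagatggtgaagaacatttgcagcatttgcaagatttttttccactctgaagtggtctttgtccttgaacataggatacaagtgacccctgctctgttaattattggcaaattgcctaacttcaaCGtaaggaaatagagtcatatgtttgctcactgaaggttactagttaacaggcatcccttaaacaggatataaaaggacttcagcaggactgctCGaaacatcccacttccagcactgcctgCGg
Tbx1: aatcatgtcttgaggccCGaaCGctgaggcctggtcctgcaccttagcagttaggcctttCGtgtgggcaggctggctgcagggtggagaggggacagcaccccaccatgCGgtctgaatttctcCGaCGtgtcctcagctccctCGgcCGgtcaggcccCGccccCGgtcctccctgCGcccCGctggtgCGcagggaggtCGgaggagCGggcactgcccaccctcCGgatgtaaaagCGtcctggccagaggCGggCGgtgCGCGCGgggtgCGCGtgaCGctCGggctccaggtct
Barx1 had 50 CpG, Tbx1 26 and Afp 3, against a median of 7 over 32851 listed promoters. The letters TATAAA occurred in the Afp window and in 13.6% of all promoters (both strands). The motif of zinc finger GATA factors, searched as AGATAA, was present in 11.2% of all promoters. The T-box motif, searched as AGGTGTGA, was present in 1.28% and the Gli motif, searched as GACCACCCA, in 0.253%. None of these was found in the windows shown. These are descriptions of the letters in 1 window per gene.

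**Figure D2:**
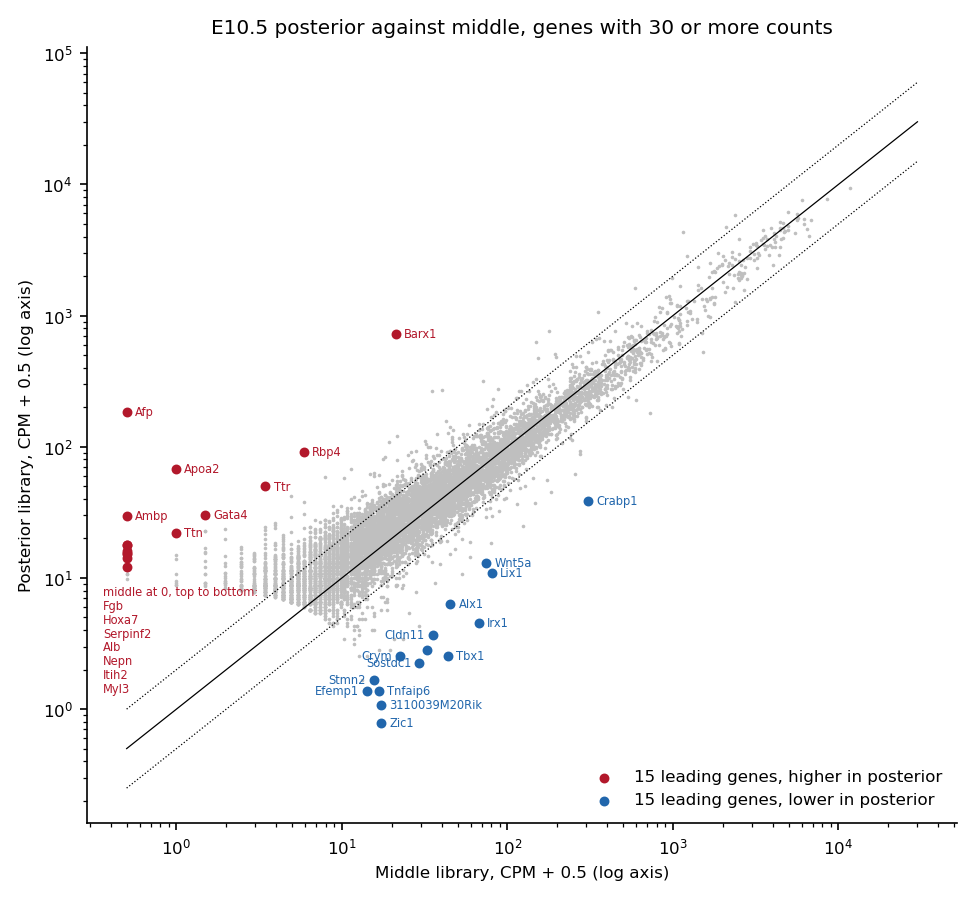
Each point is 1 of 9246 genes, by CPM plus 0.5 in the middle (x) and posterior (y) E10.5 library, on log axes; the solid line marks equal levels and the dotted lines 2-fold. Barx1 lies at 20.6 against 720 CPM and Tbx1 at 43.1 against 2.03 CPM, and 9 of the 15 leading posterior genes (red) had no middle count.

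The 15 genes that led on the posterior side by the interval end nearest 0 held 7 liver serum protein genes and 2 sarcomere genes besides Barx1, Gata4 and Hoxa7. For 13 of the 15, most of the posterior counts came from 10 cells, the exceptions being Barx1 and Gata4. Gata4, a zinc finger factor of cardiac and foregut mesoderm (chromosome 14, 63198922 to 63271692), was at 0.98 CPM in middle and 29.6 CPM in posterior cells. It was at 0 in the anterior and outflow tract libraries, which are too small for this to set them apart from the middle level. The log2 ratio of Gata4 was 4.92 (3.03 to 7.98), from 2 and 102 counts, and it had a UMI in 9.29% of posterior and 0.604% of middle cells after thinning. Epithelium-like cells gave 12.5%, but 42 of these 56 cells were posterior. Whether they express Gata4 was not tested, so their share sets no background for the posterior share. Hoxa7, a HoxA cluster gene, had no middle count and 60 posterior counts in 26 cells, at least 11.8-fold higher. A count of 0 in 331 middle cells allows a share of up to 0.906% of cells with a UMI by the floor of 3 cells (exact 95% limit 1.11%), and it does not limit how many cells express the gene.

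Of the list for the field's posterior end and the venous pole, 6 of the 19 measured were 2-fold or more higher in posterior cells and none lower, with a median log2 ratio of 0.64 beside 0.20 over all genes. They included Gata4, Gata5, Gata6, Nr2f2 and Podxl. Without cells of named types outside mesenchyme Gata6 was at 0.89 and Gata5 at −0.33, so neither was past 2-fold higher. The cells taken out included clusters that are left unnamed below. A cluster of 97 posterior and 2 middle cells among them had Gata5 as a leading gene, so a fall of Gata5 was partly built in. Gata6, a zinc finger factor of the same family as Gata4, was at 21.1 CPM in middle and 78.6 CPM in posterior cells (log2 ratio 1.90, 1.43 to 2.40). The COUP-TF nuclear receptor Nr2f2 was at 117 and 268 CPM (1.20, 0.99 to 1.41). On the length-centred scale 4 of the 19 remained past 2-fold, with Nr2f2 at 0.85 and Gata5 at 0.87.

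The best known regulators of this field differed less. Isl1, the LIM homeobox gene of cardiac progenitors (chromosome 13, 116298281 to 116309689), was at 75.4 CPM in middle and 124 CPM in posterior cells (log2 ratio 0.71, 0.44 to 0.99). Tbx5, the T-box gene of atria and inflow tract, was at 27.9 and 46.1 CPM (0.72, 0.28 to 1.19) and at 0 in both the anterior and the outflow tract library. Wnt2, a ligand of cardiopulmonary progenitors, was at 42.6 CPM in each of the 2 libraries (0.00, −0.39 to 0.40), in 14.2% of middle and 14.1% of posterior cells after thinning and in 3.57% of epithelium-like cells. Foxf1, a Hedgehog-responsive forkhead gene, was higher in middle cells, at 313 against 236 CPM (−0.41, −0.56 to −0.26), and Aldh1a2, which makes retinoic acid, was at 78.4 and 91.9 CPM (0.23, −0.05 to 0.51). So the middle cells carried Wnt2, Foxf1 and Aldh1a2 at levels within 1.33-fold of the posterior cells, and Tbx5 was in both. The cardiac progenitor genes Hand2 and Mef2c were at 17.6 and 18.1 CPM in middle and 28.7 and 28.4 CPM in posterior cells, with ratios of 0.70 (0.14 to 1.30) and 0.65 (0.09 to 1.24). Nkx2-5 had 7 and 8 counts, Hand1 7 and 10, and Fgf8 18 and 1, all under the count minimum.

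**Figure D3:**
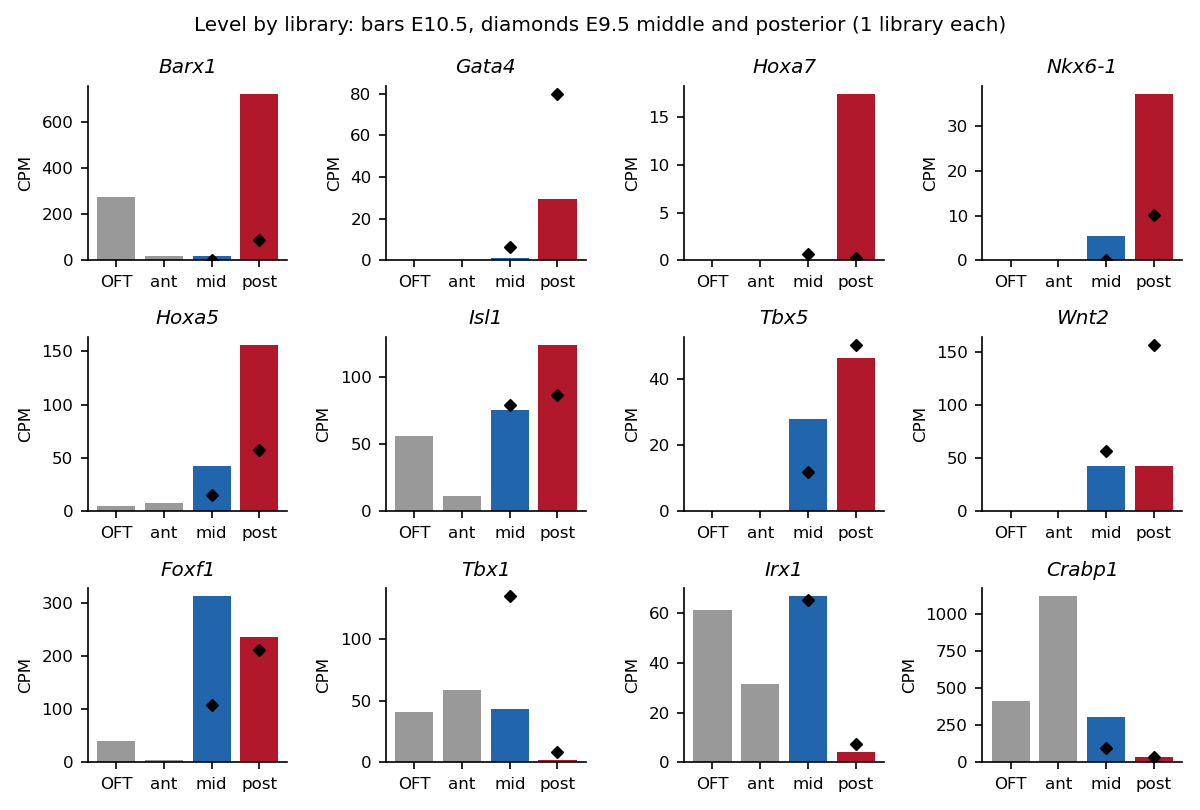
Bars give the level in CPM of 12 genes in the E10.5 outflow tract (OFT), anterior (ant), middle (mid) and posterior (post) libraries, and diamonds the E9.5 middle and posterior levels, each from 1 library. Barx1 and Hoxa5 are highest in posterior bars, Wnt2 is at 42.6 CPM in both middle and posterior bars, and Tbx1 and Irx1 are low in posterior bars alone.

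Hox genes, which set position along the body axis, were higher in posterior cells for several members of groups 4 to 8, counted from the start of the clusters. Of 15 measured, 6 were 2-fold or more higher and none lower, with a median of 0.64, and all 6 were of groups 4 to 8. Hoxa5, which patterns lung mesenchyme, was at 42.1 CPM in middle and 155 CPM in posterior cells (log2 ratio 1.88, 1.55 to 2.23), and in 12.4% and 40.4% of cells after thinning. Hoxc4 was at 13.2 and 42.3 CPM (1.68, 1.08 to 2.33) and Hoxb8 at 1.47 and 10.4 CPM (2.83, 1.17 to 5.17). The 6 measured members of groups 1 to 3 lay between −0.63 and 0.64. Among them Hoxa2 was at 31.4 and 20.3 CPM (−0.63, −1.14 to −0.12) and Hoxb2 at 129 and 84.4 CPM (−0.62, −0.86 to −0.37). Hoxb4 was at 98.5 and 105 CPM. Length-centred, 7 of the 15 were 2-fold or more higher.

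Among lung and cardiopulmonary mesenchyme genes 3 of 10 were 2-fold or more higher and none lower, beside 12.7% and 1.55% of all genes (median 0.48 beside 0.20), and 2 of 10 were higher with TMM scaling or when length-centred. The 3 were Hoxa5, Nkx6-1 and Fgf10, the last with 8 and 28 counts and an interval that spanned 0 (1.05, −0.12 to 2.39). Nkx6-1, a homeobox gene found in the mesenchyme around the airways, was at 5.39 CPM in middle and 37.1 CPM in posterior cells (log2 ratio 2.78, 1.90 to 3.82). It was at 0 in the anterior and outflow tract libraries, which are too small for this to set them apart from the middle level. Among stomach and gut mesenchyme genes 4 of 13 were 2-fold or more higher and 1 lower (median 0.71). Barx1 stood far above the next, since Hoxc5 was at 8.33 and 20.9 CPM (1.33, 0.55 to 2.18). The forkhead gene Foxf2 was the 1 lower member, at 18.1 and 6.38 CPM (−1.51, −2.34 to −0.71). Length-centred, the median of the stomach list was 0.01.

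Single cells of the posterior library did not hold these genes evenly. The following pairs were chosen after their values were seen, from 680 ordered pairs of 21 genes over both libraries, with cells thinned to 4000 UMIs. Isl1 had a UMI in 28.6% of all epithelium-like cells (unthinned, 71.4% of the 14 in middle and 28.6% of the 42 in posterior). Whether these cells express Isl1 was not tested, so their share sets no background for the Isl1 shares that follow. Isl1 was found in 50.7% (44.6 to 56.8) of the 272 posterior cells with Barx1 and in 17.7% (13.5 to 22.6) of the 288 without. Wnt2 went the other way, in 4.8% (2.6 to 8.0) of cells with Barx1 and 22.9% (18.2 to 28.2) without. Barx1 and Wnt2 were found together in 13 posterior cells. Nkx6-1 followed Wnt2 in this respect, at 6.6% with and 17.0% without Barx1. Tbx5 was in 32.9% (22.7 to 44.4) of the 79 posterior cells with Wnt2 and 14.1% (11.1 to 17.6) of the others. Of the 21 posterior cells with Hoxa7, 85.7% (63.7 to 97.0) had Barx1, against 47.1% of the rest. Gata5 was in 23.1% (12.5 to 36.8) of the 52 cells with Gata4 and in 9.1% (6.7 to 11.9) of the others.

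For Isl1 and Tbx5 the values of both libraries are given side by side. Among 38 middle cells with Tbx5, 47.4% (31.0 to 64.2) had Isl1, against 18.8% (14.5 to 23.7) of the others. Among 94 posterior cells with Tbx5, 21.3% (13.5 to 30.9) had Isl1, against 36.3% (31.9 to 40.8) of the others. Intervals are exact binomial and cover counting error only, and the difference between the libraries was not tested. The shares of 18.8% and 21.3% are under the Isl1 share of epithelium-like cells, which sets no background for Isl1. In middle cells Prrx1 was in 60.5% (43.4 to 76.0) of 38 cells with Tbx1 and 35.2% (29.7 to 40.9) of the others. It was in 19.1% (9.1 to 33.3) of 47 middle cells with Wnt2 and 41.2% of the others. Foxf1 was in 69.3% (60.9 to 76.8) of 140 cells with Tcf21 and 51.3% of the others.

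Tbx1 and the Iroquois genes were higher in middle cells, as were some other genes of the anterior and pharyngeal list. Tbx1, a T-box factor of pharyngeal mesoderm (chromosome 16, 18580979 to 18590671), was at 40.7 CPM in outflow tract, 59.1 in anterior, 43.1 in middle and 2.03 in posterior cells. The first 3 libraries were close and the posterior library was the low one. Its log2 posterior over middle ratio was −4.41 (−5.76 to −3.31), from 88 and 7 counts, and it had a UMI in 11.5% of middle and 0.714% of posterior cells after thinning, and in no epithelium-like cell. All 4 measured Iroquois homeobox genes were 2-fold or more lower in posterior cells, with a median of −1.97. Irx1 was at 66.6 CPM in middle and 4.06 CPM in posterior cells (−4.04, −4.95 to −3.24), Irx2 at 24.98 and 4.93 CPM (−2.34), Irx5 at 13.2 and 4.35 CPM (−1.60) and Irx3 at 22.5 and 7.83 CPM (−1.53). Irx1 was in 15.7% of middle, 1.79% of posterior and 12.5% of epithelium-like cells. Of 13 measured anterior and pharyngeal genes 6 were 2-fold or more lower (Tbx1, Crym, Ripply3, Foxc1, Foxc2 and Dhrs3) and 2 higher (Dlk1 and Fgf10), with a median of −0.76. The shares of all genes were 1.55% lower and 12.7% higher. Fgf10 had 8 and 28 counts and an interval that spanned 0 (1.05, −0.12 to 2.39). Without cells of named types outside mesenchyme neither Dlk1 nor Fgf10 was past 2-fold. The list median was 0.79 over the 8 members measured without cells of 1 Osr1 UMI, and 0.17 over the 9 measured after thinning.

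Retinoid binding proteins and mesenchymal homeobox genes were among the genes lower in posterior cells. Crabp1, a cytoplasmic retinoic acid binding protein, was at 417 CPM in outflow tract, 1122 in anterior, 307 in middle and 38.3 in posterior cells (log2 ratio −3.005, −3.29 to −2.73), in 53.2% of middle and 8.04% of posterior cells after thinning against 7.14% of epithelium-like cells. The level was highest in anterior and lowest in posterior cells. Crabp2 was at 275 and 93.1 CPM (−1.56, −1.76 to −1.36). Homeobox genes of facial and limb mesenchyme had the same direction. Prrx1 was at 123 and 24.4 CPM (−2.34, −2.72 to −1.98), Prrx2 at 257 and 61.8 CPM (−2.06, −2.29 to −1.82) and Alx1 at 44.6 and 5.80 CPM (−2.94, −3.72 to −2.23). Zic1, a zinc finger gene, had 34 middle counts and 1 posterior count. Of 17 mesenchymal state genes 6 were 2-fold or more lower (Prrx1, Prrx2, Meox1, Meox2, Twist2 and Snai1) and 2 higher (Pdgfra and Snai2), with a median of −0.48. Length-centred, 6 were lower and 1 higher, with Pdgfra at 0.90 and a median of −0.83.

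Branchiomeric muscle regulators, the factors of the head muscle lineage that shares progenitors with the heart, split in 2 directions. Lhx2 and Msc were 2-fold or more higher in posterior cells and Tbx1, Ebf1 and Tcf21 lower. Msc was at 31.8 CPM in middle and 80.9 CPM in posterior cells (log2 ratio 1.35, 0.95 to 1.76), and at 0 in anterior and outflow tract cells. Tcf21, which also marks epicardium and lung mesenchyme, was at 143 and 57.4 CPM (−1.32, −1.58 to −1.05).

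Liver serum protein genes were higher in posterior cells through few cells. All 12 measured members were 2-fold or more higher, with a median log2 ratio of 4.07. Afp, the fetal albumin-like protein (chromosome 5, 90490737 to 90508907), was at 0 CPM in the outflow tract, anterior and middle libraries and 184 CPM in posterior cells, at least 125-fold higher than in middle cells. One cell held 180 of the 634 counts and 5 cells 68.6%. Rbp4, a retinol carrier, was at 5.39 and 91.0 CPM (4.08, 3.22 to 5.10), and Alb had 52 posterior counts in 13 cells. The 10 posterior cells with most counts of the list held 72.5% of its 2162 counts. Without the 10 such cells of each library 9 of the 12 were still 2-fold or more higher, with a median of 1.71 and summed levels of 178 CPM in posterior and 29.3 CPM in middle cells. Afp was also found in other posterior cells. Without thinning it had a UMI in 12.5% to 28.6% of the cells of each posterior cluster outside the 55 cells with most of it (41.8%), and in 14.3% of the 42 posterior epithelium-like cells, against 0 of 331 middle cells. After thinning it was in 17.9% of posterior cells and 5.36% of the 56 epithelium-like cells of both libraries. Outside the high cells these shares are not read as expression. Of 8 hepatoblast markers, Afp, Alb, Hnf4a and Fgb were at 0 in middle cells and none was at 0 in posterior cells, and the summed level was 4.90 and 364 CPM.

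Sarcomere genes of heart muscle showed the same concentration. Of 12 measured, 10 were 2-fold or more higher in posterior cells and none lower, with a median of 2.93. Myl7, the atrial myosin light chain, was at 18.6 CPM in middle and 109 CPM in posterior cells, but 248 of its 375 posterior counts came from 1 cell. The same held for 98 of 143 Myl4 counts, 59 of 74 Ttn counts and 36 of 40 Myl3 counts. Without the 10 cells of each library with most counts of the list, 3 of 9 members were 2-fold or more higher, the median was 0.65, and the summed level was lower in posterior (433 CPM) than in middle cells (567 CPM). Actc1, the cardiac actin, was at 45.6 and 65.8 CPM (0.53, 0.18 to 0.89). Tpm1, a tropomyosin also made outside muscle, was at 637 and 420 CPM (−0.60, −0.71 to −0.49). With all cells kept, the measured members summed to 727 CPM in middle and 773 CPM in posterior cells, so Tpm1 made up most of each sum. The lower posterior sum without those 10 cells is therefore not read as a result about the other members.

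Smooth muscle genes went towards the middle library. Of 6 measured, 4 were 2-fold or more lower in posterior cells and none higher, with a median of −1.35. Tagln, an actin binding protein of early smooth muscle, was at 127 CPM in outflow tract, 410 in anterior, 183 in middle and 44.7 in posterior cells (log2 ratio −2.03, −2.31 to −1.76). Acta2, smooth muscle actin, was at 147 and 36.5 CPM (−2.01), and 84.0% of its middle counts came from 5 of the 19 middle cells that had any. Myl9 was at 114 and 36.2 CPM (−1.65), in 19.3% of middle and 7.14% of posterior cells after thinning. Of the middle counts, 59.5% for Tagln and 52.4% for Myl9 came from 5 cells.

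Signalling genes differed by pathway. Of 13 Hedgehog pathway and target genes 5 were 2-fold or more higher in posterior cells (Ptch1, Smo, Gli2, Gli3 and Hhip) and 1 lower (Foxf2), with a median of 0.34. The receptor and target Ptch1 was at 50.5 CPM in middle and 116 CPM in posterior cells (1.20, 0.89 to 1.53), while the target Gli1 was at 9.31 and 13.9 CPM (0.58, −0.21 to 1.43) and the ligand Shh at 10.3 and 8.70 CPM. Length-centred, none of the 13 was 2-fold or more higher, with Ptch1 at 0.50 and Smo at 0.83. FGF pathway genes gave 8 of 12 higher and 1 lower (median 1.07), and 5 and 1 when length-centred. At E9.5 the median of the 12 was −0.98. Etv4, Etv5, Spred2 and Il17rd were 2-fold or more lower in posterior cells there, while Fgfr2 was 2-fold or more higher at both stages. The ligand Fgf9 was at 7.84 and 20.6 CPM (1.39, 0.60 to 2.28), the receptor Fgfr1 at 19.6 and 55.1 CPM (1.49, 0.99 to 2.02) and the FGF-induced factor Etv5 at 2.94 and 12.5 CPM (2.08, 0.85 to 3.61). Spry2, a feedback inhibitor, was the 1 lower member, at 23.0 and 9.86 CPM (−1.22, −1.90 to −0.56), so targets of this pathway did not share a direction.

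Wnt, retinoic acid and Notch lists had no or 1 member 2-fold or more higher in posterior cells. Of 16 Wnt genes 3 were 2-fold or more lower and none higher (median −0.04): Wnt5a, a noncanonical ligand, at 74.0 CPM in middle and 12.5 CPM in posterior cells (−2.57, −3.09 to −2.07), the agonist Rspo2 at 79.4 and 17.98 CPM (−2.14, −2.59 to −1.71), and the effector Tcf7 at 18.1 and 8.99 CPM. The ligands Wnt4 (97.0 and 86.4 CPM) and Wnt11 (9.80 and 9.28 CPM) were close. Length-centred, 4 of the 16 Wnt genes were 2-fold or more lower and none higher, with a median of −0.38. Of 11 retinoic acid genes Crabp1, Crabp2 and Dhrs3 were lower and none higher (median −0.27), and the receptor Rarb was at 19.6 and 18.3 CPM. Of 6 Notch genes Notch2, Jag1 and Hey1 were lower and Notch3 higher (median −0.84). Length-centred, none of the 6 was 2-fold or more higher, with a median of −1.31. Notch2 was at 52.9 and 19.1 CPM (−1.47, −1.93 to −1.01) and the target Hey1 at 27.4 and 7.25 CPM (−1.92, −2.66 to −1.22).

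BMP genes had members past 2-fold in both directions. Of 14 measured, Smad6, Smad7, Bmp5, Bmpr1b and Bmpr2 were 2-fold or more higher and the homeobox targets Msx1 and Msx2 lower (median 0.43), and 1 remained higher when length-centred. Smad7, an inhibitor of the pathway, was at 16.7 CPM in middle and 40.9 CPM in posterior cells (1.30, 0.75 to 1.88, and 0.95 when length-centred). Msx1 was at 52.4 and 10.1 CPM (−2.37, −2.96 to −1.81), and the target Id3 at 1094 and 602 CPM (−0.86, −0.95 to −0.78). The ligand Bmp4 was at 18.6 and 16.8 CPM (−0.15, −0.76 to 0.48). Of 16 guidance genes 6 were higher and 1 lower (median 0.76), but 1 and 1 when length-centred (median 0.04). The lower member was the chemokine Cxcl12, at 126 and 49.3 CPM (−1.36, −1.65 to −1.07).

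**Figure D4:**
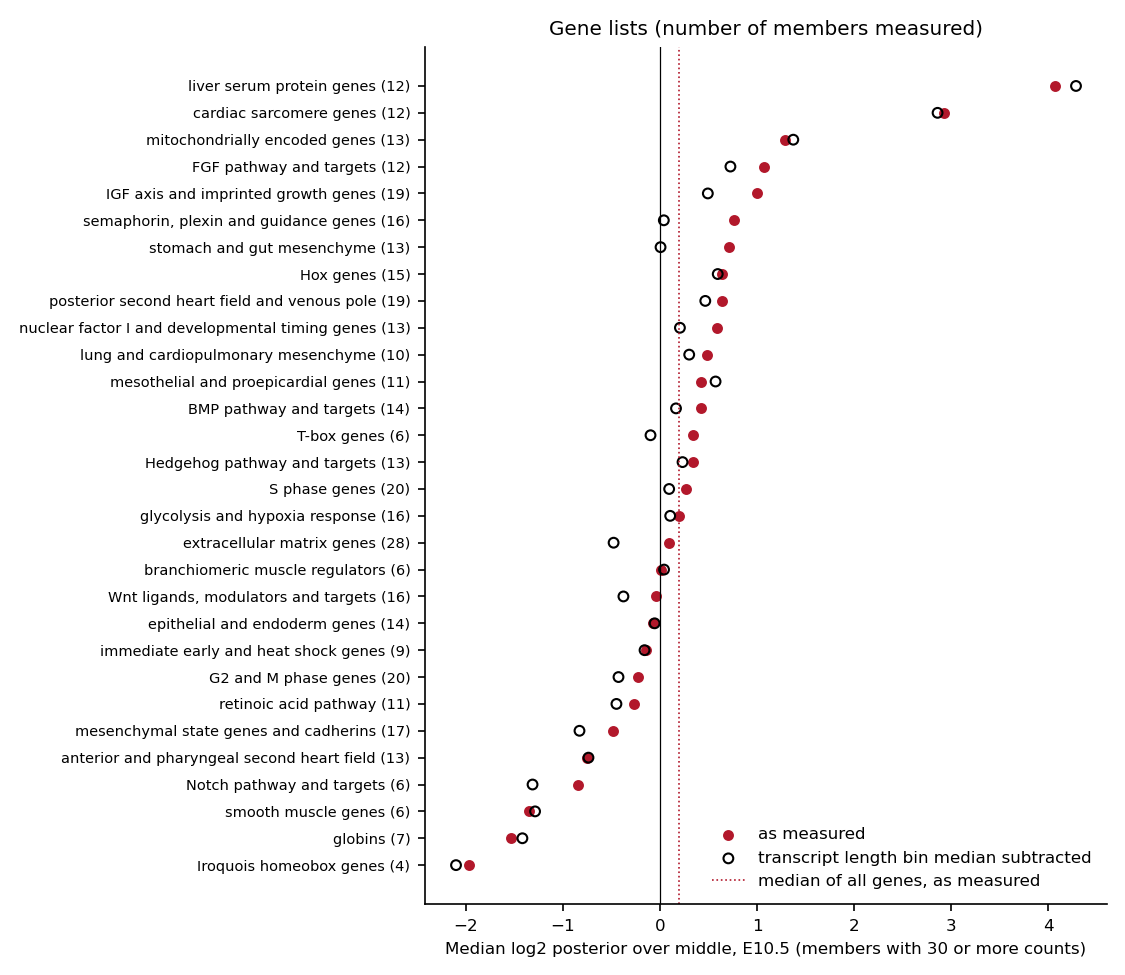
For each gene list (number of members with 30 or more counts in parentheses), the median log2 posterior over middle ratio at E10.5 as measured (filled) and with the median of genes of like transcript length subtracted (open); the dotted line is the median of all genes, 0.20. Liver serum protein genes (4.07) and sarcomere genes (2.93) are highest, Iroquois genes (−1.97) lowest.

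Imprinted and insulin-like growth factor genes, which set embryonic growth, were higher in posterior cells for 9 of 19 measured and lower for none (median 1.00), and for 6 of 19 when length-centred (median 0.49). The noncoding RNA Meg3 was at 147 CPM in middle and 631 CPM in posterior cells (log2 ratio 2.10, 1.92 to 2.28), H19 at 194 and 509 CPM (1.39, 1.23 to 1.55), and the ligand Igf1 at 16.2 and 60.6 CPM (1.91, 1.37 to 2.48). Cdkn1c, a cell cycle inhibitor of the same class, was at 833 and 1072 CPM (0.36). Of 28 extracellular matrix genes 5 were higher and 2 lower, beside 12.7% and 1.55% of all genes (median 0.09, and −0.08 with TMM scaling), but 2 and 7 when length-centred. Col1a2 was at 58.3 and 147 CPM (1.33, 1.04 to 1.63, and 0.82 when length-centred), and the matrix protein Tnc at 15.2 and 4.64 CPM (−1.71, −2.68 to −0.80).

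Cell cycle genes differed little. Of 20 S phase genes 1 was 2-fold or more higher (Uhrf1, at 36.7 and 97.1 CPM), of 20 G2 and M phase genes none was past 2-fold (median −0.23), and of 16 glycolysis and hypoxia genes Pdk1 alone was higher (6.37 and 27.0 CPM). Of 9 measured immediate early and heat shock genes none was past 2-fold. Mitochondrially encoded genes were 2-fold or more higher in posterior cells for 10 of 13 (median 1.29), from mt-Cytb at 2257 and 2805 CPM (0.31) to mt-Nd6 at 10.8 and 67.6 CPM (2.65). Globins were 2-fold or more lower for 5 of 7. Hba-x, an embryonic globin, was at 1521 and 525 CPM (−1.53), in 86.4% and 83.9% of cells after thinning, and 70.2% of its middle counts came from 5 cells. In sums over a library, fewer cells of a type and less RNA per cell cannot be told apart.

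The dissected tissue held other cell types in both libraries. Epithelial markers summed to 362 CPM in middle and 457 CPM in posterior cells with none of the 9 at 0, and endothelial markers to 55.4 and 73.6 CPM with none of the 8 at 0. Leukocyte markers were at or near 0, at 1.96 and 5.22 CPM. Neural markers summed to 144 and 101 CPM, with Pax6 at 0 in middle cells. Foxa1, an endoderm forkhead factor, was higher in posterior cells (2.45 and 13.6 CPM, log2 ratio 2.48), and Nkx2-1, a lung and thyroid endoderm factor, lower (15.2 and 4.93 CPM, −1.62), while Epcam was at 127 and 119 CPM. Markers of lung or foregut mesenchyme summed to 459 CPM in middle and 1220 CPM in posterior cells, of which Barx1 made up 20.6 and 720 CPM. The pharyngeal markers summed to 408 and 353 CPM, but 3 of the 8 members were 2-fold or more higher in posterior cells and 4 lower. Tbx1 and Irx1 were at 43.1 and 66.6 CPM in middle but 2.03 and 4.06 CPM in posterior cells, while Isl1 was at 75.4 and 124 CPM. Markers from both lists were thus found in both libraries, and the near-equal pharyngeal sums hide opposite members. The defining cardiac progenitor gene Nkx2-5 was near 0 in both, at 3.43 and 2.32 CPM, while Isl1 was present in both.

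Clustering the 891 cells gave 11 clusters, and those without endothelial, epithelial or neural markers were each mostly or wholly of 1 library. The largest held 147 middle and 21 posterior cells, the next 137 middle cells alone, and 3 clusters of 120, 119 and 93 cells were posterior alone. A cluster of 1 library may be that library and not a cell type, so cluster sizes are not compared. By their markers, epithelium-like cells numbered 14 in middle and 42 in posterior, neural-like cells 14 and 8, and endothelial-like cells 5 and 5. The rule for names gave hepatoblast-like to the 55 posterior cells with most Afp, but 72.7% of these had a Barx1 UMI, and they are left unnamed here. It also gave cardiomyocyte-like to a cluster of 97 posterior and 2 middle cells, 10.3% of whose posterior cells had a Myl4 UMI, and these too are left unnamed.

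The E9.5 sample, with its own middle and posterior libraries, was set beside these ratios. It came from other embryos, was sequenced more deeply per cell (medians of 26700 and 31257 UMIs) and had 1 Xist count in its middle and posterior libraries together, so stage and sex cannot be told apart. Of 9124 genes with 30 or more counts at both stages, 1130 were 2-fold or more higher in posterior cells at E10.5, and 129 of these were so at E9.5, which is 11.4% of the E10.5 genes and 31.1% of the 415 E9.5 genes (4.55% of all). Of 126 lower genes 21 were lower at E9.5 too (16.7% of the E10.5 genes and 15.1% of the 139 E9.5 genes, which are 1.52% of all), and 24 were 2-fold or more higher there. The shared higher genes held Barx1, Gata4, Gata5, Nkx6-1, Msc, Hoxa5, Hoxc5 and Igf1, and the shared lower genes Tbx1, Irx1, Irx2, Irx3, Irx5, Crabp1, Crabp2, Prrx1, Wnt5a, Spry2 and Ripply3. Tbx1 was at 135 and 8.57 CPM at E9.5 (log2 ratio −3.98). Of the 15 leading posterior genes 10 could be measured at E9.5 and 8 were 2-fold or more higher there. Among these 8, Apoa2 (1.16, −0.80 to 4.25) and Ambp (1.40, −0.54 to 4.49) had 2 E9.5 middle counts each and intervals that spanned 0. Afp had no E9.5 middle count, so its value there is a bound. Of the 15 leading middle genes 8 could be measured and 6 were 2-fold or more lower in posterior cells. Among these 6, Efemp1 had an interval that spanned 0 (−1.13, −2.16 to 0.04).

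Other genes differed between the stages. Wnt2 was at 56.8 and 156 CPM at E9.5 (1.46) against equal levels at E10.5, Tbx5 at 11.9 and 50.04 CPM (2.08 against 0.72) and Foxf1 at 108 and 212 CPM (0.97 against −0.41). At E9.5 all 3 were thus higher in posterior than in middle cells, while at E10.5 Tbx5 alone had an interval above 0. Msx1 and the smooth muscle genes Tagln, Acta2 and Myl9 were higher in the posterior library at E9.5 and lower at E10.5. Meg3 (0.29), Fgfr1 (−0.09) and Hhip (−0.05) were near 0 at E9.5. Over the named genes with 30 or more counts at both stages, 66 of 104 had the same sign. Of all genes past 2-fold at E10.5, 668 of the 1130 higher and 60 of the 126 lower had the same sign at E9.5. Most named genes were taken by their E10.5 ratio, so the 66 of 104 is not read as a result about them. The difference between stages was not tested, since each stage was measured once.

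**Figure D5:**
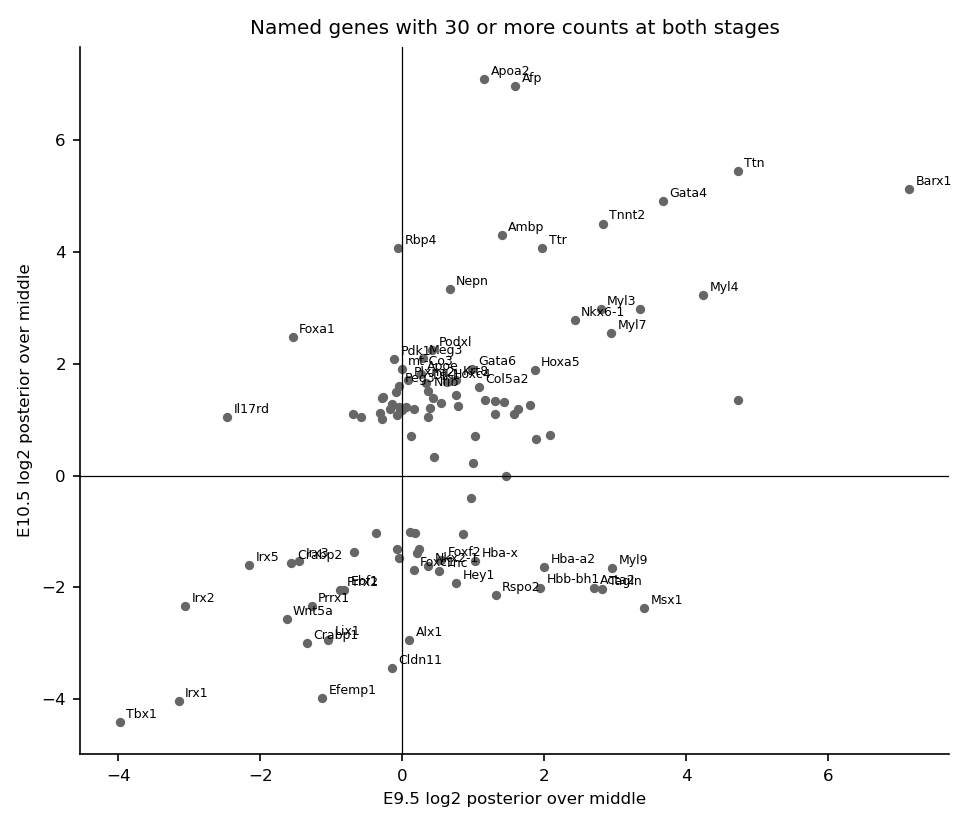
Each point is 1 of 104 named genes with 30 or more counts at both stages, by its log2 posterior over middle ratio at E9.5 (x) and E10.5 (y), 1 library per position and stage. Barx1 and Gata4 lie upper right, Tbx1 and Irx1 lower left, and Msx1, Tagln, Acta2 and Myl9 lower right, with 66 of the 104 of 1 sign at both stages. Of all genes past 2-fold at E10.5, 668 of the 1130 higher and 60 of the 126 lower kept their sign at E9.5.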

How the data were processed

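The deposited values are raw UMI counts, with genes in rows and cells in columns; per the labels the barcode suffix gives the position and reads were aligned to mm10, and per the submitters' processing notes Cell Ranger 3.0 and Seurat were used. The annotation and any filter on cells are not given in the sources used here. Symbols were matched to GENCODE on GRCm38 for 99.0% of genes. Counts were summed per library, divided by library totals, and genes with 30 or more counts kept. Ratios carry exact conditional Poisson intervals (Clopper-Pearson, 95%), and against 0 counts a bound with 3 counts is given. The intervals and 2-fold calls were checked on counts simulated with the Poisson error that the intervals assume. That check does not bear on genes whose counts lie in few cells. No test was made, since each position is 1 library, and intervals say nothing of the spread between embryos. Shares of cells used thinning to 4000 UMIs. No cell was removed: Scrublet marked 5 of 331 middle (1.51%) and 9 of 560 posterior cells (1.61%), left out in an alternative. Clusters used scanpy 1.11.5 (2000 variable genes, 20 principal components, 15 neighbours, resolution 0.6), and TMM factors edgeR 4.0.16 in R 4.3.3. The rest ran in Python 3.11.15 with scipy 1.17.1. Length-centred ratios subtract the median of 20 transcript length bins and were added after the data were seen.

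The rule for named genes took the 15 higher and 15 lower genes whose interval end nearest 0 lies farthest from 0 (globins and mitochondrially encoded genes only in their lists), members of 30 gene lists past 2-fold with up to 4 examples a list by counts, and 15 field genes whatever their values. Other members with values are given as examples and were chosen after their values were seen. Members and lists were chosen with earlier results of these data known. Some genes that the rule selected are not reported here; list counts include them.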

Additional observations from a re-analysis of the deposited data

Results flagged for a closer look

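A set of genes was 2-fold or more apart between posterior and middle cells in 1 direction at E10.5 and in the other direction at E9.5. Each library is the only one of its position and stage, so the difference between stages was not tested. Msx1 had a log2 posterior over middle ratio of −2.37 at E10.5 and 3.41 (2.04 to 5.29) at E9.5. The E9.5 value came from 4 middle and 362 posterior counts, and 54.2% of the E10.5 middle counts of Msx1 came from 10 cells. The smooth muscle genes had the same pattern, with Tagln at −2.03 and 2.82, Acta2 at −2.01 and 2.70, and Myl9 at −1.65 and 2.96. In E10.5 middle cells 84.0% of the Acta2 counts and 59.5% of the Tagln counts came from 5 cells. The embryonic globins Hba-x (−1.53 and 1.03) and Hbb-bh1 (−2.005 and 1.94) also turned, with E9.5 levels of 4.37 to 16.8 CPM against 181 to 1521 CPM at E10.5. The E9.5 middle library held 10 and 7 counts of them, and 5 cells held 70.2% and 74.3% of their E10.5 middle counts. In the other direction, Foxa1 was at 2.48 at E10.5 and −1.54 at E9.5. Il17rd, an FGF antagonist, was at 1.04 and −2.46, and its E10.5 value was 0.34 when length-centred.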

How the results depend on the processing

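The number of genes 2-fold or more higher and lower in posterior cells was 1170 and 143. It was 1917 and 320 with a minimum of 10 counts, 376 and 62 with a minimum of 100, and 534 and 253 when length-centred (added after the data were seen). With TMM scaling 247 genes were lower, and without cells of named types outside mesenchyme 775 were higher, the clusters left unnamed above being among those taken out. The cause of these shifts was not tested, except that fewer or more genes enter under another minimum. The sarcomere median turned to −0.84 without those types and to −0.0032 without cells of 1 Osr1 UMI, over 4 members each. Without those types, Gata5 was at −0.33, Myl4 at −0.27 and Tnni1 at −0.43. A cluster taken out with them had Gata5, Myl4, Tnni1 and other sarcomere genes among its leading genes. These falls, and that of the sarcomere median without those types, were thus partly built in by the choice of cells. Of 919 values of named genes under other settings 758 moved by less than their counting interval, and of 272 list medians 244 moved by less than 0.5 on the log2 scale. Of the 108 genes past 2-fold among 116 named, 9 were not with TMM scaling (Fgf10, Gata5, Gli3, Fgfr2, Il17rd, Bmpr2, Notch3, Lamb1 and Sall4) and 21 when length-centred. Without cells of named types outside mesenchyme 13 of 103 were not (Fgb, Itih2, Fgf10, Gata6, Gata5, Dlk1, Hhip, Smad6, Myl7, Myl4, Tnni1, Apoe and Lamb1). Without cells of 1 Osr1 UMI 18 of 104 were not, and 3 genes (Alb, Myl3 and Nkx2-1) gave no comparable value. No paired analysis was possible because each position has 1 library per stage, and no replicate could be left out. At these totals 0 counts allow up to 1.47 CPM in middle and 0.870 CPM in posterior cells. The anterior and outflow tract libraries are smaller, so 0 counts there allow higher levels.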

Other observations

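Several further genes also led the middle side. Lix1 was at 79.8 CPM in middle and 10.4 CPM in posterior cells (log2 ratio −2.94, −3.50 to −2.41) and was found in 21.5% and 3.75% of cells after thinning. Cldn11, a tight junction protein, was at 34.8 and 3.19 CPM (−3.45, −4.51 to −2.52), and at 0 in the anterior library. Sostdc1, a secreted antagonist of BMP and Wnt signals, was at 28.9 and 1.74 CPM (−4.05, −5.56 to −2.85). Crym and Tnfaip6 were highest in the anterior library, at 161 and 82.7 CPM, with 22.04 and 16.2 CPM in middle and 2.03 and 0.87 CPM in posterior cells. Stmn2, a neuronal gene, was at 15.2 and 1.16 CPM, and 77.4% of its middle counts came from 5 cells.

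Of 13 measured nuclear factor I and developmental timing genes, 2 were 2-fold or more higher in posterior cells and none lower, near the 12.7% and 1.55% of all genes. Their median was 0.59 beside 0.20 over all genes, and 11 of the 13 were above 0. Length-centred, none was 2-fold or more higher and 1 was lower, with a median of 0.21. Nfib was at 46.5 CPM in middle and 134 CPM in posterior cells (log2 ratio 1.52, 1.20 to 1.86) and 0.72 when length-centred. Among mesothelial and proepicardial genes 3 of 11 were higher and 1 lower, beside 12.7% and 1.55% of all genes. Wt1, a zinc finger gene of mesothelium, was at 6.37 and 11.3 CPM (0.83, −0.11 to 1.86).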
